A study of Sus scrofa with 12 samples.

Results

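The genes examined here encode the enzymes of glycolysis, of lactate, pyruvate and glycogen metabolism and of the pentose phosphate pathway, with their main regulators, in the uterus of newborn gilts (young female pigs). They were a list of 52 gene symbols, matched to the symbol column of an expression table or, where that column held a LOC placeholder, to the table's description. A main entry was found for 47 of the 52, among 20390 entries in the table: 31 by symbol and 16 by LOC placeholder. All 47 exceeded the lowest value of the table, 1, in at least 4 of the 12 libraries and were tested. Values of ALDOA, ENO1, GBE1 and PYGB are not analysed here, and the only entry for PGAM1, described as PGAM1-like, stood at 1 in every library. Another 13 entries bear the name of a member at a second position or under a second gene ID. They are described apart and enter no count of members.

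Uteri came from 3 groups of 4 gilts, with 1 library per animal. PND2N gilts suckled freely for 48 h, PND2R gilts received a commercial milk replacer for 48 h, and the uteri of both were taken at 50 h of age. PND0 gilts were killed within 1 h of birth. Every gilt was a cross of Landrace, Yorkshire, Duroc and Hampshire stock, and each uterus was cleared of connective tissue, placed in RNALater and frozen. The study compared each day 2 group with newborn gilts, to follow age under each feed, and the feeds with each other at the same age. Libraries are numbered 1 to 4 within a group only to name them, and values are always listed in that order.

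Glycolysis splits glucose to pyruvate, which is either reduced to lactate by lactate dehydrogenase or passed into the mitochondrion and oxidized by the pyruvate dehydrogenase complex. Kinases (PDK) switch that complex off by phosphorylation, and phosphatases (PDP) switch it on again. Glycogen is the stored form of glucose: glycogen synthase builds it, glycogen phosphorylase breaks it down, and targeting subunits bring protein phosphatase 1 to the glycogen particle, where it favours synthesis. The pentose phosphate pathway branches from glycolysis and yields NADPH and ribose. The lining and glands of the adult uterus hold glycogen, as do its muscle cells. Glycogen in these newborn uteri is not among the values here.

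The values are normalized levels on a linear scale made by the authors. They are not per gene length, so levels are compared between libraries and never between genes. Column totals ran from 26534074 to 29544130. Divided by the commonest low value of each library, they give 11348572 to 22749690, the highest in PND2N 3. This is a weak guide to depth, because many low values were not whole multiples of a common step. In each library 17.8% to 22.1% of the entries stood at 1. Libraries PND2N 1, PND2R 2 and PND2R 3 stood apart along the main axis of a principal component analysis (58.5% of the variance). The summed level of the smooth muscle markers, of which 6 of 7 had an entry, was 321739, 247450 and 253144 there, against 95229 to 198907 in the other day 2 libraries and 118732 to 152724 in PND0. These libraries also had the highest column totals (29544130, 28354031 and 29001990) and the highest shares of entries at 1 (22.1%, 21.9% and 21.3%). Which of their differences bears on a value below was not tested. Libraries PND0 1 and PND0 2 differed from PND0 3 and PND0 4 along the next axis (12.9%). Their epithelial markers, of which 5 of 6 had an entry, summed to 88496 and 93641, against 26086 and 19974. At day 2 the epithelial sums were 44324 to 82916 in PND2N and 63640 to 80954 in PND2R. Stromal markers (5 of 6) summed to 223141 to 447797 in PND2N, 190078 to 362000 in PND2R and 274752 to 377661 in PND0. Their lowest sums were in PND2N 1, PND2R 2 and PND2R 3, at 223141, 246869 and 190078. Uterine muscle, epithelium and stroma were therefore represented in every library, and skeletal muscle markers (4 of 6) summed to only 26.3 to 109. Because whole uteri were sequenced, fewer cells of a type and less RNA per cell cannot be told apart in any value below. Adjusted p-values are from limma with Benjamini-Hochberg adjustment over the 16862 entries tested, two-sided, with a threshold of 0.05, and they measure the spread between animals.

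Most genes of glucose use showed no change past the threshold between birth and day 2. The exceptions lay in glycogen turnover, lactate dehydrogenase, the pyruvate dehydrogenase complex with its kinases, and the pentose phosphate pathway. PPP1R3G, a glycogen-targeting subunit of protein phosphatase 1, fell in both day 2 groups. DLD, a subunit of the pyruvate dehydrogenase complex, fell in PND2R and in the average of both day 2 groups. PYGM (muscle glycogen phosphorylase) and TKT (transketolase) rose in both of these comparisons, and PDK3 rose in PND2R. LDHA, the chain of lactate dehydrogenase that favours lactate, passed only in the average of both day 2 groups, where it fell. No member passed between the feeds. In PND2N versus PND0, 1 of 47 members passed the threshold, and it was lower. That is 2.13% of the members, against 3.32% of all entries, of which 1.91% passed higher and 1.41% lower. In PND2R versus PND0, 5 of 47 passed, 3 higher and 2 lower, which is 10.6%, against 15% of all entries (7.7% higher and 7.31% lower). In the day 2 average versus PND0, 5 of 47 passed, 2 higher and 3 lower, which is 10.6%, against 18.1% (9.57% higher and 8.49% lower). None of these shares lay above that of the whole table. The median log2 change of the members was -0.02 in PND2N, -0.04 in PND2R and -0.13 in the day 2 average, against -0.04, -0.06 and -0.05 over all entries in the same comparisons. Changes of less than 0.5 log2 units were measured for 36 members in PND2N and for 33 in PND2R. Both day 2 groups were set against the same PND0 libraries, so their changes are not independent of each other. With PND2N 1, PND2R 2 and PND2R 3 left out, the libraries that stood apart, no member passed in PND2R with limma. In that limma fit 7 lay under an unadjusted p of 0.05 in PND2R, and 2 passed in the day 2 average. It kept only 2 PND2R libraries, so the smaller group and the values of the libraries left out cannot be told apart. Leaving out 1 library took the count in PND2R to 1 without PND2R 2, PND2R 3 or PND0 1, to 2 without PND0 2, to 3 without PND2N 4, PND2R 4, PND0 3 or PND0 4, and to 7 without PND2N 1. For the day 2 average it took the count to 2 without PND0 1, and to 3 without PND2N 4, PND2R 2, PND2R 3, PND0 2 or PND0 3. Shares of all entries in these fits are not given here, so the shifts are not shown to be particular to the members.

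**Figure D1:**
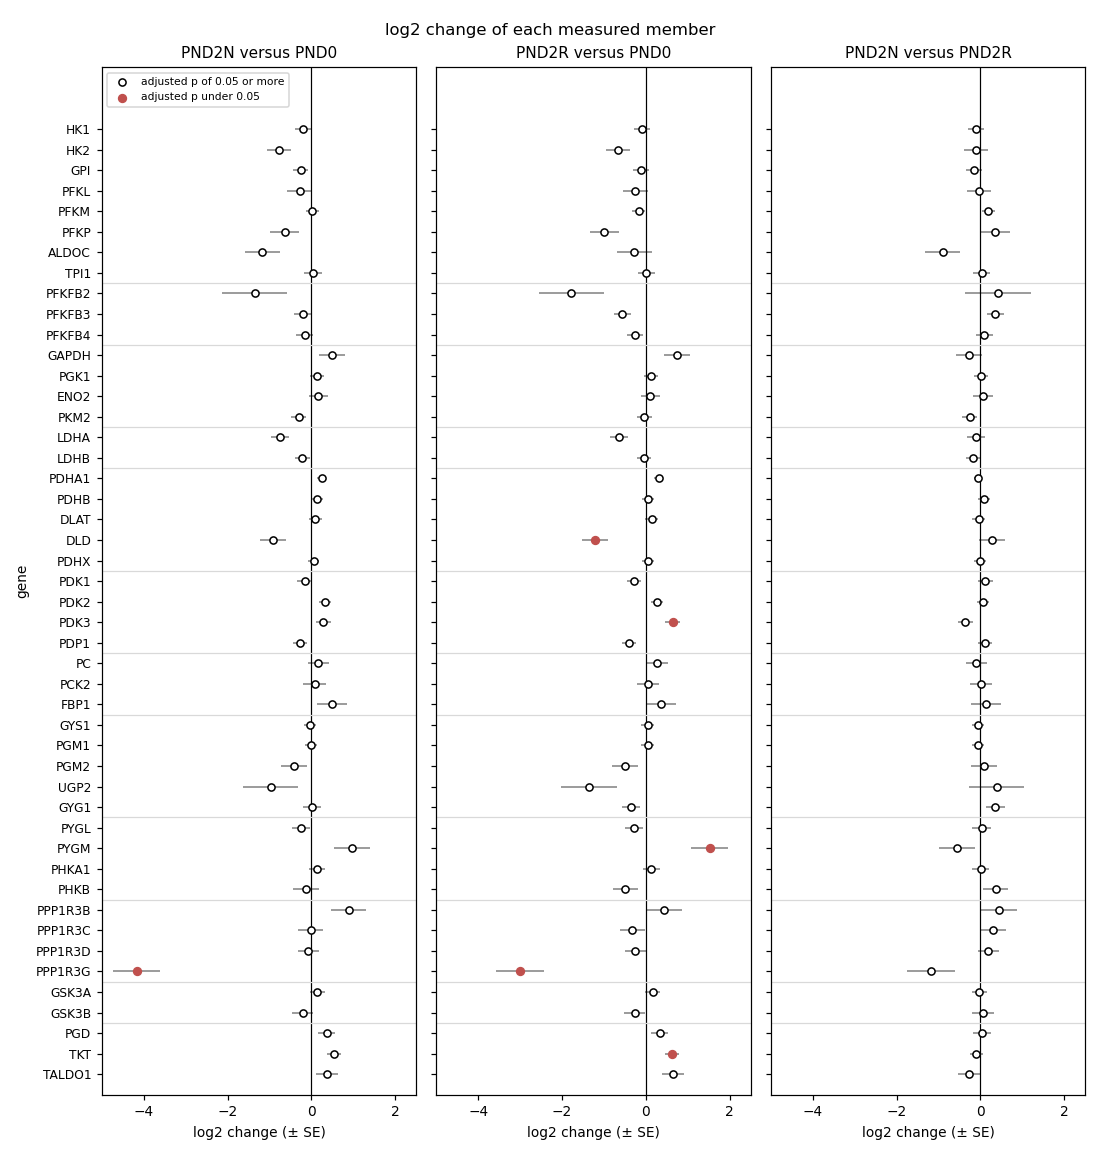
log2 change with its standard error for each of the 47 members in each day 2 group against PND0 and between the feeds, with filled points where the adjusted p is under 0.05 and lines between the role groups. PPP1R3G passes in PND2N and PND2R, DLD, PYGM, PDK3 and TKT pass in PND2R, and no member passes in PND2N versus PND2R.

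The first steps of glycolysis, where glucose is phosphorylated and split into triose phosphates, held no member past the threshold among the 8 measured. Their changes ran from -1.17 to 0.04 log2 units in PND2N and from -0.996 to 0.01 in PND2R. Of the 8, 6 were below zero in PND2N and 7 in PND2R. HK2, the insulin-responsive hexokinase that traps glucose in the cell, had normalized values of 419, 528, 608 and 436 in PND2N, 655, 392, 471 and 670.2 in PND2R, and 1146, 1127, 771 and 507 in PND0. Only PND0 1, PND0 2 and PND0 3 lay above every day 2 library, and PND0 4 lay within their range. The log2 change of HK2 was -0.78 ± 0.29 in PND2N (adjusted p = 0.134) and -0.66 ± 0.29 in PND2R (adjusted p = 0.117). ALDOC, an aldolase isoform best known from brain, had 75.1, 36.3, 59.7 and 38.3 in PND2N, 70.2, 91.8, 113 and 106 in PND2R, and 127, 233, 96.8 and 58.8 in PND0. The lowest values were in PND2N, but the groups overlapped, and its log2 change was -1.17 ± 0.42 in PND2N (adjusted p = 0.124) and -0.28 ± 0.42 in PND2R. A second entry named ALDOC on the same chromosome was also lowest in PND2N, at 6.13, 5.63, 5.35 and 5.85, with 15.1, 13.5, 11.2 and 8.801 in PND2R and 16.1, 30.5, 22.02 and 16.2 in PND0. Its groups did not overlap, and it fell in PND2N by 1.67 ± 0.31 log2 units (adjusted p = 0.0237), while the change in PND2R was -0.73 ± 0.31 (adjusted p = 0.111). That call ended without PND2N 1, PND2N 2, PND2N 4 or PND0 4 (adjusted p = 0.0543 to 0.0866), with only PND2N and PND0 in the fit (0.0850) and without the 3 libraries that stood apart (0.0516). In the day 2 average it fell by 1.20 ± 0.27 (adjusted p = 0.0144), which held without any 1 library. This entry lies within the interval of LOC100624794 on the other strand, so reads of the overlapping genes may not have been told apart.

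PFKP, the platelet isoform of phosphofructokinase, ranged over 226 to 476 in PND2N, 229.8 to 282 in PND2R and 304 to 859.5 in PND0. Its PND2R libraries lay below every PND0 library, with a log2 change of -0.996 ± 0.35 (adjusted p = 0.0680). The liver isoform PFKL and the muscle isoform PFKM changed by -0.25 ± 0.29 and -0.17 ± 0.15 in PND2R, with overlapping groups. HK1, the hexokinase of most tissues, GPI (glucose-6-phosphate isomerase) and TPI1 (triose phosphate isomerase) changed by no more than 0.26 log2 units in either day 2 group.

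Fructose 2,6-bisphosphate, the activator of phosphofructokinase, is made and broken down by the PFKFB enzymes, and none of the 3 measured passed the threshold. All 3 had negative changes in both day 2 groups, from -1.36 to -0.16 in PND2N and from -1.78 to -0.26 in PND2R. PFKFB3, the inducible isoform with high kinase activity, had 1596, 1321, 1229 and 1307 in PND2N, 887, 1155, 1279 and 958 in PND2R, and 1786, 2134, 1334 and 1183 in PND0. The PND2R values were the lowest on average, but PND0 3 and PND0 4 lay within the day 2 range. Its log2 change was -0.21 ± 0.20 in PND2N (adjusted p = 0.527) and -0.57 ± 0.20 in PND2R (adjusted p = 0.0734). PFKFB2, the heart isoform, had 12.1, 107, 154 and 46.00 in PND2N, 86.4, 17.7, 18.1 and 102 in PND2R, and 168, 96.3, 150.1 and 177 in PND0. It was low in PND2N 1, PND2R 2 and PND2R 3, the libraries with the highest smooth muscle sums, and spread widely elsewhere. The part of these libraries in its change of -1.78 ± 0.78 in PND2R (adjusted p = 0.121) was not tested. The interval of PFKFB2 lies inside that of C4BPA on the same strand and overlaps YOD1.

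From triose phosphates to pyruvate, 4 of 6 members were measured and none passed. GAPDH, the dehydrogenase often used as a reference gene, had 29385, 10366, 11192 and 16666 in PND2N, 14400.1, 21447, 24244 and 15958 in PND2R, and 11046, 15154, 9875 and 9059 in PND0. Its highest values were in PND2N 1, PND2R 2 and PND2R 3, and the groups overlapped. The log2 change was 0.48 ± 0.31 in PND2N (adjusted p = 0.341) and 0.75 ± 0.31 in PND2R (adjusted p = 0.104). PKM2, the table's symbol for pyruvate kinase M, had 32896, 22672, 25018 and 24403 in PND2N, 30015, 31615, 32581 and 30243 in PND2R, and 33791, 44514, 28987 and 23992 in PND0. PND2R libraries lay close together, PND0 libraries did not, and the change was -0.30 ± 0.18 in PND2N (adjusted p = 0.315) and -0.04 ± 0.18 in PND2R. The splice forms of this gene share 1 entry and were not separated. PGK1, which makes ATP in glycolysis, ranged over 5541 to 6346 in PND2N, 5473 to 5990.3 in PND2R and 3889.9 to 7312 in PND0, and ENO2, the neuronal enolase, over 1193 to 1955 in PND2N, 1113 to 2047 in PND2R and 1209 to 1615 in PND0. Neither changed by more than 0.17 log2 units. Markers of neurons and glia (4 of 6) summed to 294 to 327 in PND2N, 270 to 366 in PND2R and 182 to 297 in PND0. In the day 2 average 1 of them passed the threshold.

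Lactate dehydrogenase is a tetramer of A and B chains, the A chain favouring lactate formation. LDHA (chromosome 2, 43994943 to 44006122 on Sscrofa10.2) had 6063, 5442, 7490.3 and 5274 in PND2N, 8001, 5668, 5279.7 and 7188 in PND2R, and 10444, 14648, 9576 and 7037 in PND0. PND0 1, PND0 2 and PND0 3 lay above every day 2 library, and PND0 4 lay within the day 2 range. LDHA fell by 0.70 ± 0.19 log2 units in the day 2 average (adjusted p = 0.0291), and its change was -0.75 ± 0.22 in PND2N (adjusted p = 0.0786) and -0.65 ± 0.22 in PND2R (adjusted p = 0.0631). The call in the day 2 average ended without PND2N 4, PND2R 2, PND2R 3, PND0 1, PND0 2 or PND0 3 (adjusted p = 0.0545 to 0.0708), and without PND2N 1, PND2R 2 and PND2R 3 together (-0.58, adjusted p = 0.103). LDHA was highest in PND0 1 and PND0 2, the newborn libraries with the high epithelial sums, and without both the change was -0.40, adjusted p = 0.168. The part of the epithelial share in the result was not tested, since that removal also leaves only 2 newborn libraries.

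The B chain had an entry on chromosome 5 (LOC100621540, 53277571 to 53301024) and another, under the symbol LDHB itself, on chromosome 2 (12848945 to 12850226). The NCBI gene table of the later assembly lists the gene ID on chromosome 2 as a pseudogene, so the chromosome 5 entry was taken as the main entry. It had 1224, 1055, 1349.7 and 1354 in PND2N, 1415, 1542, 1311 and 1341 in PND2R, and 1753, 1746, 1282 and 1105 in PND0. The groups overlapped, with log2 changes of -0.22 ± 0.18 in PND2N (adjusted p = 0.438) and -0.04 ± 0.18 in PND2R (adjusted p = 0.872). The chromosome 2 entry had 8437, 6443, 5098 and 7912 in PND2N, 6994, 8395, 9259 and 7276 in PND2R, and 4108, 4259.8, 4365 and 3549 in PND0. Every day 2 library lay above every PND0 library, and the entry rose by 0.75 ± 0.17 in PND2N (adjusted p = 0.0363), by 0.97 ± 0.17 in PND2R (adjusted p = 0.00857) and by 0.86 ± 0.15 in the day 2 average (adjusted p = 0.00594). The calls in PND2R and in the day 2 average held without any 1 library. The entry was highest in PND2R 3, PND2N 1 and PND2R 2, the libraries with the highest smooth muscle sums. The call in PND2N ended in 9 of the 12 fits without 1 library, all but those without PND2N 3, PND2R 1 or PND2R 3 (adjusted p = 0.0522 to 0.123), and with only PND2N and PND0 in the fit (0.0947). Without the 3 libraries that stood apart, the adjusted p was 0.0673 in PND2N and 0.0634 in PND2R. Near-identical sequences can share reads between such entries, so the level of LDHB is uncertain, and only the chromosome 2 entry passed the threshold.

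Pyruvate enters the mitochondrial matrix and is oxidized by a complex of E1 (PDHA1, PDHB), E2 (DLAT), E3 (DLD) and an E3-binding protein (PDHX). DLD, the dihydrolipoamide dehydrogenase that this complex shares with other keto acid dehydrogenases (chromosome 9, 116567419 to 116593890), had 44.8, 68.9, 108 and 89.5 in PND2N, 77.5, 54.01, 53.9 and 59.1 in PND2R, and 148, 158, 143 and 118 in PND0. Every day 2 library lay below every PND0 library. DLD fell by 1.21 ± 0.31 log2 units in PND2R (adjusted p = 0.0265) and by 1.06 ± 0.27 in the day 2 average (adjusted p = 0.0222), and its change in PND2N was -0.92 ± 0.31 (adjusted p = 0.110). The call in PND2R ended without any 1 of PND2R 2, PND2R 3, PND2R 4 and the 4 PND0 libraries (adjusted p = 0.0508 to 0.0806), and the call in the day 2 average without PND0 1 or PND0 3 (0.0521 and 0.0545). Without PND2N 1, PND2R 2 and PND2R 3 the adjusted p was 0.101 in PND2R and 0.0522 in the day 2 average, and without PND0 1 and PND0 2 it was 0.0721 and 0.0840.

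PDHA1, the catalytic chain of E1, had 6928, 7455, 7669.6 and 7289 in PND2N, 7398, 8189, 7492 and 7445 in PND2R, and 5955, 5756, 6869 and 6212 in PND0. All 8 day 2 libraries lay above all 4 PND0 libraries, by a small margin, with log2 changes of 0.25 ± 0.11 in PND2N (adjusted p = 0.182), 0.30 ± 0.11 in PND2R (adjusted p = 0.0673) and 0.27 ± 0.09 in the day 2 average (adjusted p = 0.0557). PDHB, DLAT and PDHX had overlapping groups and changes of 0.04 to 0.14 log2 units in both day 2 groups. Groups without overlap were found for 4 members in PND2N versus PND0, namely TKT and PDHA1 above it and DLD and PPP1R3G below it, against 16% of all entries (8.14% higher and 7.88% lower). In PND2R versus PND0 there were 8, of which 4 lay higher and 4 lower, against 28.3% of all entries (12.7% and 15.6%). All 8 day 2 libraries stood clear of PND0 for the same 4 members named for PND2N, against 13.3% of all entries (6.67% higher and 6.62% lower).

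PDK3 (chromosome X, 21259531 to 21330186), the isoform of pyruvate dehydrogenase kinase least sensitive to inhibition by pyruvate, had 1487, 1016, 986 and 1054 in PND2N, 1293, 1424, 1749.7 and 1331 in PND2R, and 885, 796, 1092 and 934 in PND0. The PND2R libraries all lay above the PND0 libraries, while in PND2N only PND2N 1 did so. PDK3 rose by 0.64 ± 0.18 log2 units in PND2R (adjusted p = 0.0342), and the change was 0.28 ± 0.18 in PND2N (adjusted p = 0.335) and 0.46 ± 0.15 in the day 2 average (adjusted p = 0.0561). The call in PND2R ended without any 1 of PND2N 4, PND2R 2, PND2R 3, PND2R 4, PND0 1, PND0 2 and PND0 4 (adjusted p = 0.0507 to 0.112). It also ended without PND2N 1, PND2R 2 and PND2R 3 (0.51, adjusted p = 0.154) and without PND0 1 and PND0 2 (0.51, adjusted p = 0.103). The highest values of PDK3 lay in the libraries of the first of these removals, those with the highest smooth muscle sums. PDP1, the phosphatase that reactivates the complex, had 1739, 2274, 2663 and 2063 in PND2N, 2457, 1743, 1643 and 2209 in PND2R, and 2538, 2601, 2709 and 2636 in PND0. PND0 libraries lay close together and above every PND2R library, and the log2 change was -0.40 ± 0.17 in PND2R (adjusted p = 0.108) and -0.28 ± 0.17 in PND2N (adjusted p = 0.312). PDK1 and PDK2 changed by -0.28 ± 0.17 and 0.27 ± 0.15 in PND2R, and neither passed in any comparison.

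**Figure D2:**
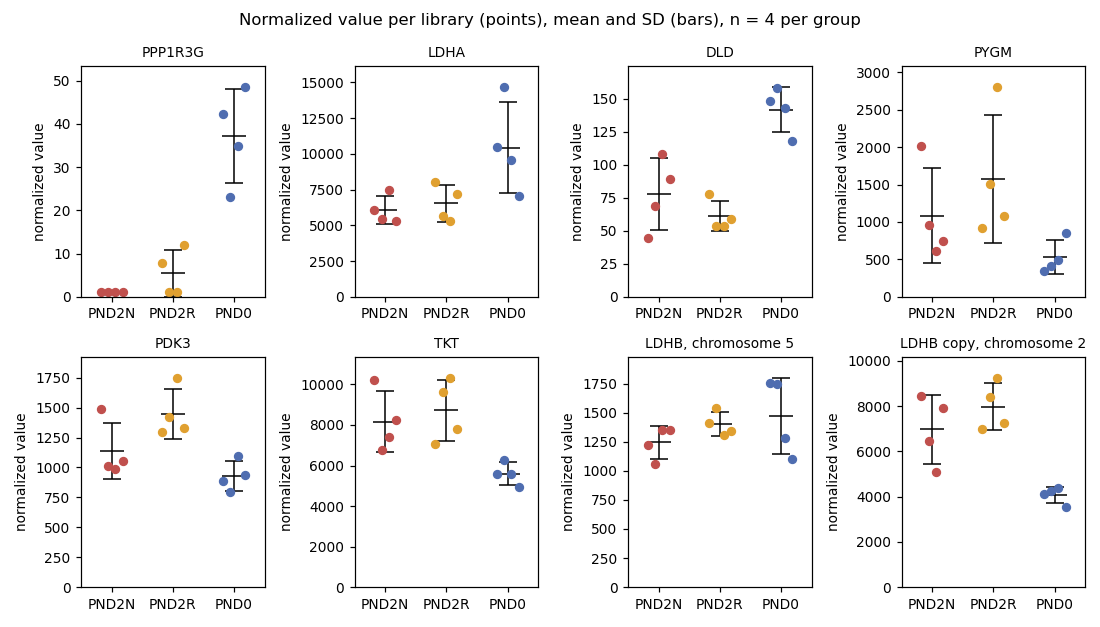
Normalized value in each library (points) with the group mean and SD (bars, n = 4) for the 6 members past the threshold in any comparison and for the entries named LDHB on chromosomes 5 and 2; groups run PND2N, PND2R, PND0. PPP1R3G is at most 11.96 in day 2 libraries and at least 23.1 in PND0 libraries, and the chromosome 2 entry of LDHB lies between 5098 and 9259 at day 2, above 3549 to 4365 in PND0.

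The enzymes that lead pyruvate back toward glucose or into the tricarboxylic acid cycle showed no change that passed. PC, the pyruvate carboxylase, had 393, 299, 255 and 244 in PND2N, 219, 380.2, 413 and 282 in PND2R, and 273, 236, 280.3 and 254 in PND0. Values of the groups overlapped, with log2 changes of 0.17 ± 0.25 in PND2N and 0.27 ± 0.25 in PND2R (adjusted p = 0.690 and 0.448). FBP1, the fructose bisphosphatase of gluconeogenesis, had 78.6, 73.3, 69.00 and 88.7 in PND2N, 73.7, 61.2, 75.6 and 72.05 in PND2R, and 69.7, 99.1, 29.7 and 42.6 in PND0. The day 2 libraries lay within 61.2 to 88.7, while PND0 spread from 29.7 to 99.1 with its highest values in PND0 1 and PND0 2. PCK2, the mitochondrial phosphoenolpyruvate carboxykinase, changed by 0.07 ± 0.26 in PND2N and 0.05 ± 0.26 in PND2R.

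Of the enzymes that build glycogen, 5 of 6 were measured and none passed. GYS1, the glycogen synthase outside liver, ranged over 1648 to 2021 in PND2N, 1898 to 1982 in PND2R and 1469.8 to 2182 in PND0, with log2 changes of -0.03 ± 0.14 and 0.04 ± 0.14 in the day 2 groups. Its interval overlaps that of FTL on the other strand. UGP2, which makes the UDP-glucose that glycogen is built from, had 235, 1275, 1636 and 767 in PND2N, 1494, 311, 236 and 1169 in PND2R, and 1801, 1967, 1197 and 1330.2 in PND0. It was lowest in PND2N 1, PND2R 2 and PND2R 3. PND2N 4 and PND2R 4 also lay below the lowest PND0 value, and the other 3 day 2 libraries lay within the PND0 range. The log2 change was -0.98 ± 0.66 in PND2N and -1.36 ± 0.66 in PND2R (adjusted p = 0.367 and 0.156). GYG1, the glycogenin that primes a new glycogen particle, had 1468, 2107, 2481 and 1752 in PND2N, 1742, 1659.7, 1065 and 1607 in PND2R, and 1564, 1798, 2555 and 1832 in PND0. Its groups overlapped, and the change was 0.01 ± 0.22 in PND2N and -0.35 ± 0.22 in PND2R (adjusted p = 0.986 and 0.255). The phosphoglucomutases PGM1 and PGM2 changed by 0.04 ± 0.15 and -0.50 ± 0.31 in PND2R.

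On the side of glycogen breakdown, 4 of 5 members were measured. PYGM, the glycogen phosphorylase of muscle (chromosome 2, 6468329 to 6479929), had 2012, 960.5, 616 and 748 in PND2N, 913, 1501, 2801 and 1078 in PND2R, and 351, 413, 491 and 859 in PND0. PND2R libraries lay above all PND0 libraries, the highest being PND2R 3, and in PND2N the groups overlapped. PYGM rose by 1.52 ± 0.43 log2 units in PND2R (adjusted p = 0.0371) and by 1.24 ± 0.37 in the day 2 average (adjusted p = 0.0404), and the change in PND2N was 0.96 ± 0.43 (adjusted p = 0.198). Its values were highest in PND2R 3, PND2N 1 and PND2R 2, which had smooth muscle sums of 253144, 321739 and 247450, and lowest in PND0 1 and PND0 2. The part of the muscle share in the result was not tested. Leaving out PND2R 3, PND2N 1 and PND2R 2 also removes their other differences and leaves only 2 PND2R libraries. Without the 3 libraries the change was 0.99, adjusted p = 0.142 in PND2R, and 0.80, adjusted p = 0.0862 in the day 2 average. Without PND0 1 and PND0 2 it was 1.13, adjusted p = 0.148 in PND2R and 0.86, adjusted p = 0.220 in the day 2 average. The calls ended without any 1 of PND2N 2, PND2N 4, PND2R 2, PND2R 3, PND0 1, PND0 2 and PND0 3, with an adjusted p of 0.0502 to 0.113 in PND2R and 0.0547 to 0.101 in the day 2 average, and with no filter on low values (0.0708 and 0.0769).

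PYGL, the liver isoform of the phosphorylase, changed by -0.25 ± 0.22 in PND2N and -0.28 ± 0.22 in PND2R (adjusted p = 0.486 and 0.365). PHKB, the beta subunit of phosphorylase kinase, which activates the phosphorylase, had 518, 1234, 1393 and 1091 in PND2N, 1079, 608, 586 and 930.5 in PND2R, and 1031, 1006, 1292 and 1037 in PND0. It was low in PND2N 1, PND2R 2 and PND2R 3 and otherwise ranged from 930.5 to 1393, with no change that passed. PHKA1, the alpha subunit of that kinase in muscle, ranged over 1176 to 1909 in PND2N, 1321 to 2085 in PND2R and 1359 to 1562 in PND0.

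Protein phosphatase 1 dephosphorylates glycogen synthase and the phosphorylase where a targeting subunit holds it to glycogen, and 4 such subunits were measured. PPP1R3G (LOC100522260, chromosome 7, 1863400 to 1864583) is a subunit described in mouse liver. It had 1, 1, 1.18 and 1 in PND2N, 7.75, 1, 1 and 11.96 in PND2R, and 42.2, 23.1, 34.8 and 48.5 in PND0. Every PND0 library lay above every day 2 library, and 5 of the 8 day 2 libraries stood at 1, the lowest value of the table, so that the RNA was not detectable there at this depth. PPP1R3G fell by 4.17 ± 0.57 log2 units in PND2N (adjusted p = 0.00935), by 2.998 ± 0.57 in PND2R (adjusted p = 0.0118) and by 3.59 ± 0.50 in the day 2 average (adjusted p = 0.00321). With values this near the floor the size depends on the number added before the logarithm: with 0.1 added the changes were -4.98 in PND2N and -3.46 in PND2R, and with 5 added -2.76 and -2.13. All 3 calls held without any 1 library. Without PND2N 1, PND2R 2 and PND2R 3, the change in PND2R was -1.79, adjusted p = 0.0648, from 2 remaining PND2R libraries, and PND2N and the day 2 average kept adjusted p-values of 0.00747 and 0.00833. The 4 PND0 libraries alone would have carried the gene past the filter on low values.

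PPP1R3B, the subunit known from liver and muscle, had 697, 2358, 2232 and 3891 in PND2N, 1246, 1149, 2139 and 1339.8 in PND2R, and 1388, 895, 907 and 1082 in PND0. PND2N held both the highest values and the lowest, so the groups overlapped, and the log2 change was 0.89 ± 0.42 in PND2N (adjusted p = 0.224) and 0.44 ± 0.42 in PND2R (adjusted p = 0.463). PPP1R3C and PPP1R3D had changes of -0.02 ± 0.30 and -0.08 ± 0.25 in PND2N and of -0.33 ± 0.30 and -0.26 ± 0.25 in PND2R. Among the 4 subunits, then, only PPP1R3G passed the threshold, which does not show that the others held their level.

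The glycogen synthase kinases phosphorylate and slow glycogen synthase. GSK3A had 5192, 3628, 3447 and 4368 in PND2N, 3330.4, 4919, 5041 and 3703 in PND2R, and 4101, 4046, 3370.1 and 3432 in PND0. No day 2 group stood apart from PND0, with changes of 0.14 ± 0.18 in PND2N and 0.17 ± 0.18 in PND2R (adjusted p = 0.628 and 0.502). GSK3B had 474, 653, 782 and 485 in PND2N, 739.7, 465, 437 and 663 in PND2R, and 614, 504.2, 889.5 and 768 in PND0. Its changes were -0.21 ± 0.26 and -0.27 ± 0.26 in the same groups (adjusted p = 0.614 and 0.455). An entry named GSK3B by its description only, beside it on chromosome 13 but on the other strand, had 246, 446, 539 and 311 in PND2N, 494, 239, 203 and 433 in PND2R, and 735, 604, 761 and 759 in PND0. Every day 2 library of that entry lay below every PND0 library, and it fell by 1.15 ± 0.33 in PND2R (adjusted p = 0.0363) and by 1.05 ± 0.28 in the day 2 average (adjusted p = 0.0277). Its call in PND2R ended without PND2N 4, PND2R 2, PND2R 3, PND0 1, PND0 3 or PND0 4 (adjusted p = 0.0510 to 0.112), and the one in the day 2 average without PND2N 4, PND2R 2, PND0 1, PND0 3 or PND0 4 (0.0527 to 0.0808). The 3 lowest values of the entry were in PND2R 3, PND2R 2 and PND2N 1, and without these libraries the change was -0.62, adjusted p = 0.194 in PND2R and -0.69, adjusted p = 0.0588 in the day 2 average. The adjusted p without PND0 1 and PND0 2 was 0.0616 in PND2R and 0.0605 in the day 2 average, and with library quality weights 0.0617 and 0.0564. With no filter on low values the call in PND2R also ended (0.0553).

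In the pentose phosphate pathway all 3 members had positive changes in both day 2 groups, and 1 passed. TKT, the transketolase of the non-oxidative branch (chromosome 13, 37927917 to 37956451), had 10239, 6755, 7422 and 8253 in PND2N, 7078, 9638, 10332 and 7814 in PND2R, and 5589, 6289, 5587 and 4948 in PND0. The lowest day 2 library lay above the highest PND0 library. TKT rose by 0.63 ± 0.16 log2 units in PND2R (adjusted p = 0.0286) and by 0.58 ± 0.14 in the day 2 average (adjusted p = 0.0207), and its change in PND2N was 0.53 ± 0.16 (adjusted p = 0.0882). Its highest day 2 values were in PND2R 3, PND2N 1 and PND2R 2, the libraries with the highest smooth muscle sums, and without them the change was 0.41, adjusted p = 0.165 in PND2R and 0.42, adjusted p = 0.0610 in the day 2 average. The call in PND2R ended without PND2R 2, PND2R 3, PND0 1, PND0 3 or PND0 4 (adjusted p = 0.0545 to 0.0960), and that in the day 2 average without PND0 4 (0.0703). TALDO1, the transaldolase of the same branch, had 9008, 4585, 5058 and 6297 in PND2N, 5388, 8593, 9849.9 and 6181 in PND2R, and 5352, 6275, 3717 and 3699 in PND0. Its 3 highest values were in the same libraries as those of TKT, but the groups overlapped, with a log2 change of 0.38 ± 0.26 in PND2N (adjusted p = 0.380) and 0.65 ± 0.26 in PND2R (adjusted p = 0.1005). PGD, the phosphogluconate dehydrogenase that yields NADPH, changed by 0.37 ± 0.21 and 0.33 ± 0.21 in the same groups (adjusted p = 0.286 and 0.254).

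Several genes were listed under more than 1 entry. The entries of PGK1 and of UGP2 differed in which libraries were low, while those of PHKB were low in the same ones. For PGK1, the main entry ranged from 3889.9 to 7312, while LOC100518105, nearby on the same chromosome, had 347, 903, 1243 and 522 in PND2N, 985, 357, 323 and 803 in PND2R and 1313, 1876, 1287 and 958 in PND0. For UGP2, LOC100620996 had 281, 392, 367 and 413 in PND2N, 423, 372, 299.9 and 365 in PND2R and 267, 310.2, 219 and 232 in PND0, with a narrower range than the main entry. The low libraries of the main UGP2 entry, PND2N 1, PND2R 2 and PND2R 3, were also the low ones of the second PGK1 entry. PHKB was listed as 3 entries side by side on chromosome 6. LOC100520789 had 74.05, 671, 892 and 425 in PND2N, 511, 117, 108 and 437 in PND2R and 749.9, 687, 959 and 716 in PND0, and LOC100521794 had 107, 245, 356 and 174 in PND2N, 244, 94.6, 118 and 242 in PND2R and 275, 291, 409 and 312 in PND0. All 3 PHKB entries were lowest in those libraries, and none of these second entries passed the threshold. A second PFKFB3 entry went the other way, with 347, 264 and 306 in PND2N 1, PND2R 2 and PND2R 3 and 54.8 to 174 in the other 9. The second entries of PDK1 and PDK2 were low, at 1 to 7.86 and at 3.02 to 77.9 over the 12 libraries. Of the 13 further entries, 3 were below the filter on low values and 3 passed the threshold in some comparison, those of ALDOC, LDHB and GSK3B given above.

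**Figure D3:**
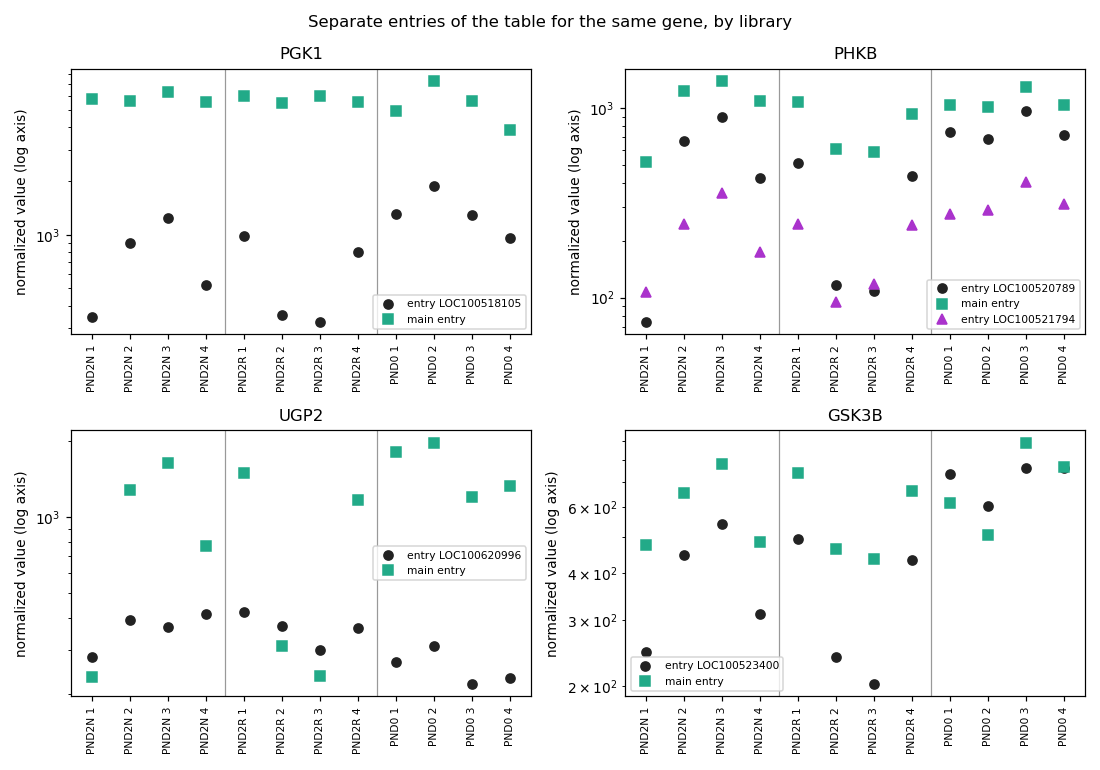
Normalized value (log axis) of separate entries of the table that bear the name of the same gene, by library, for PGK1, PHKB, UGP2 and GSK3B. The main PGK1 entry stays between 3889.9 and 7312 while the second falls to 347, 357 and 323 in PND2N 1, PND2R 2 and PND2R 3, and the main UGP2 entry is 235, 311 and 236 in the same libraries.

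Nursed and replacer-fed gilts of the same age were compared directly, which is also the test of whether the changes from birth differed between the feeds. No member passed in limma in PND2N versus PND2R, 0 of 47 against 0.0119% of all entries, and 0 lay under an unadjusted p of 0.05. The groups overlapped for all 47 members, while 2.55% of all entries had none. The median log2 difference was 0.02, and 44 of 47 members differed by less than 0.5 log2 units. The exceptions were PPP1R3G at -1.18 ± 0.57 (unadjusted p = 0.0619), ALDOC at -0.90 ± 0.42 (unadjusted p = 0.0525) and PYGM at -0.55 ± 0.43 (unadjusted p = 0.224), all lower in PND2N and all with adjusted p = 0.9996 in limma. PPP1R3G stood at 7.75 and 11.96 in PND2R 1 and PND2R 4 and at 1 in PND2R 2 and PND2R 3, against 1 to 1.18 in PND2N. Thus the members that passed in PND2R and not in PND2N, namely DLD, PYGM, PDK3 and TKT, were not shown to differ between the feeds. The second ALDOC entry had groups without overlap, 5.35 to 6.13 in PND2N and 8.801 to 15.1 in PND2R, with a difference of -0.94 ± 0.31 (unadjusted p = 0.0104, adjusted p = 0.9996 in limma). With 4 animals a group, differences of the size seen in PPP1R3G or ALDOC did not pass, which does not show that the feeds act alike.

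Genes next to these pathways were read from 3 further lists. Among 45 other genes of glycolysis, glycogen and pyruvate metabolism, 31 were tested. None passed in PND2N with limma, where 8 lay under an unadjusted p of 0.05, and 3 rose in PND2R, which is 9.68%, against 15% of all entries. The share of all entries under that unadjusted p is not given here, so the 8 are not shown to be particular to the list. In the day 2 average 3 rose and 2 fell, which is 16.1%, against 18.1% of all entries, with a median change of 0.01 against -0.05 over all entries. TIGAR, a phosphatase that lowers fructose 2,6-bisphosphate, had 407, 365, 292 and 366 in PND2N, 459.7, 474, 563 and 395 in PND2R, and 241, 208, 193 and 142 in PND0. Every day 2 library lay above every PND0 library. It rose by 1.28 ± 0.22 log2 units in PND2R (adjusted p = 0.00865) and by 1.08 ± 0.19 in the day 2 average (adjusted p = 0.00682), and its change in PND2N was 0.88 ± 0.22 (adjusted p = 0.0525). Both calls held without any 1 library, and without PND2N 1, PND2R 2 and PND2R 3 the one in PND2R did not (adjusted p = 0.0670). PPP1CC, a catalytic subunit of protein phosphatase 1, rose by 0.42 ± 0.11 in PND2R (adjusted p = 0.0270), and SLC37A4, the glucose-6-phosphate carrier of the endoplasmic reticulum, by 0.62 ± 0.17 (adjusted p = 0.0363). The PPP1CC call ended without PND2R 2, PND2R 3, PND2R 4, PND0 1 or PND0 4 (adjusted p = 0.0574 to 0.0669), and the SLC37A4 call without PND2N 4, PND2R 2, PND2R 3, PND2R 4, PND0 1, PND0 3 or PND0 4 (0.0502 to 0.113). In the day 2 average PPP1CC rose by 0.38 ± 0.09 (adjusted p = 0.0219) and SLC37A4 by 0.53 ± 0.15 (adjusted p = 0.0327). That call of PPP1CC ended without PND0 1 or PND0 4, and without PND0 1 and PND0 2 together (0.0542). That of SLC37A4 ended without PND2N 4, PND2R 2, PND2R 3, PND0 3 or PND0 4. It also ended with library quality weights (0.0609) and without PND2N 1, PND2R 2 and PND2R 3 together (0.111). Without PND2N 1, PND2R 2 and PND2R 3 the change in PND2R was 0.52, adjusted p = 0.0788 for PPP1CC, a larger change than with all libraries, and 0.52, adjusted p = 0.181 for SLC37A4. GAA, the lysosomal enzyme that degrades glycogen, had 194, 897, 866 and 613 in PND2N, 889, 239.9, 225 and 783 in PND2R, and 1588, 1625, 1272 and 1405 in PND0. All day 2 libraries lay below PND0, lowest in PND2N 1, PND2R 2 and PND2R 3. GAA fell by 1.57 ± 0.47 in the day 2 average (adjusted p = 0.0394), a call that ended without PND2N 4, PND2R 2, PND2R 3 or any 1 PND0 library (adjusted p = 0.0655 to 0.0949). It also ended without PND0 1 and PND0 2 (-1.44, adjusted p = 0.142), with no filter on low values (0.0776) and with library quality weights (0.0787). Without PND2N 1, PND2R 2 and PND2R 3 the change was -0.86, adjusted p = 0.0209. PPP1R3A, another targeting subunit, also fell in the day 2 average (adjusted p = 0.0375) but was at most 2.199 at day 2 and 3.93 in PND0, near the floor of the table, and its call ended in 10 of the 12 fits without 1 library, all but those without PND2N 2 or PND2R 3. It also ended with 5 added before the logarithm (0.0566), with library quality weights (0.0609) and without PND2N 1, PND2R 2 and PND2R 3 (0.0994). Its 4 PND0 libraries alone would have carried it past the filter, and only 2 of the 8 day 2 libraries were above 1.

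Of 17 carriers of glucose and of lactate or pyruvate, 10 were tested, and SLC16A3 fell in both day 2 groups. In PND2N 1 of the 10 passed, which is 10%, against 3.32% of all entries. In PND2R 2 passed, which is 20%, against 15%, and in the day 2 average 2 passed, against 18.1%. SLC16A3 (MCT4), which carries lactate out of cells, had 545, 260.0, 339 and 355 in PND2N, 469, 354, 523 and 447 in PND2R, and 1070.3, 2381, 915 and 811 in PND0. The highest day 2 value lay below the lowest PND0 value. Its log2 change was -1.70 ± 0.33 in PND2N (adjusted p = 0.0266), -1.40 ± 0.33 in PND2R (adjusted p = 0.0224) and -1.55 ± 0.29 in the day 2 average (adjusted p = 0.00783), which held without any 1 library. The call in PND2N ended without PND2N 2, PND2N 4, PND0 1 or PND0 4 (adjusted p = 0.0527 to 0.0924), and that in PND2R without PND2R 2 or PND2R 3 (0.0545 to 0.0714) or without the 3 libraries that stood apart (0.0969). With only PND2N and PND0 in the fit the adjusted p was 0.0898. SLC2A13, a carrier of myo-inositol from the glucose carrier family, fell by 0.84 ± 0.25 in PND2R (adjusted p = 0.0426). This call held in 3 of 12 fits without 1 library, those without PND2N 1, PND2N 3 or PND0 2 (0.0585 to 0.124 otherwise). For SLC2A13 it also ended without PND2N 1, PND2R 2 and PND2R 3 (-0.93, adjusted p = 0.112) and with only PND2R and PND0 in the fit (0.0654). Its change in the day 2 average was -0.80 ± 0.22 (adjusted p = 0.0277), and that call ended without PND2N 4, PND2R 3, PND0 1, PND0 3 or PND0 4 (0.0527 to 0.0946). The glucose carriers SLC2A1 and SLC2A3 did not pass, with changes of -0.21 ± 0.28 and -0.49 ± 0.25 in PND2N and 0.30 ± 0.28 and -0.36 ± 0.25 in PND2R.

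Of 19 enzymes of the tricarboxylic acid cycle, 16 were tested. None passed in PND2N with limma, where 3 lay under an unadjusted p of 0.05. For that count, too, the share of all entries is not given here. In PND2R 1 rose and 1 fell, which is 12.5%, against 15% of all entries. In the day 2 average 3 rose, which is 18.8%, against 18.1%, with a median change of 0.05. These shares are near those of the whole table. SUCLG1, a subunit of succinyl-CoA ligase, had 8949, 5761, 5367 and 7268 in PND2N, 6662, 8538, 9633 and 7152 in PND2R, and 4605, 4978, 3794 and 3126 in PND0. All day 2 libraries lay above all PND0 libraries, with a rise of 0.96 ± 0.20 in PND2R (adjusted p = 0.0150) and 0.84 ± 0.17 in the day 2 average (adjusted p = 0.0117), and the second of these calls held without any 1 library. Without PND2R 2 or PND2R 3 the adjusted p in PND2R was 0.0512 and 0.0539, and without both of them and PND2N 1 it was 0.0889. OGDH, the E1 of oxoglutarate dehydrogenase, which also uses DLD, had 15.6, 80.4, 80.3 and 42.3 in PND2N, 50.6, 18.3, 3.58 and 48.5 in PND2R, and 160.4, 147, 83.8 and 97.98 in PND0. Day 2 libraries lay below PND0 and spread widely, lowest in PND2R 3, PND2N 1 and PND2R 2. It fell by 2.45 ± 0.75 in PND2R (adjusted p = 0.0470), and that call ended without PND2N 2, PND2N 4, PND2R 2, PND2R 3 or any 1 PND0 library (adjusted p = 0.0564 to 0.114). Without PND2N 1, PND2R 2 and PND2R 3 the change was -1.23, adjusted p = 0.120, and without PND0 1 and PND0 2 it was -2.07, adjusted p = 0.151. The call also ended with no filter on low values (0.0837), with library quality weights (0.0705) and with 0.1 added before the logarithm (0.0502). IDH3B and SUCLA2, a subunit of isocitrate dehydrogenase and 1 of succinyl-CoA ligase, rose by 0.49 ± 0.14 and 0.56 ± 0.17 in the day 2 average (adjusted p = 0.0388 and 0.0432). Their calls ended without any 1 of PND2N 1, PND2N 4, PND2R 2, PND2R 3, PND0 1 and PND0 4, for IDH3B also PND0 3, and for SUCLA2 also PND2R 4 and PND0 2 (adjusted p = 0.0515 to 0.122 for IDH3B and 0.0504 to 0.103 for SUCLA2). They also ended without PND2N 1, PND2R 2 and PND2R 3 (0.142 and 0.158), for IDH3B with library quality weights (0.0922), and for SUCLA2 with no filter on low values (0.0526) and without PND0 1 and PND0 2 (0.33, adjusted p = 0.243).

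**Figure D4:**
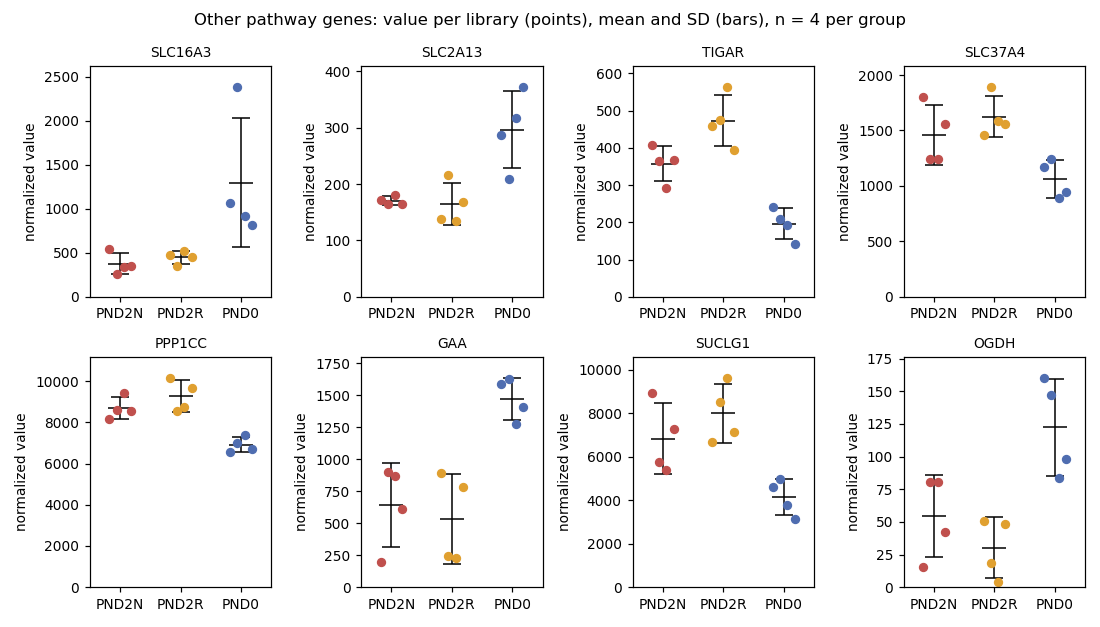
Normalized value in each library (points) with the group mean and SD (bars, n = 4) for 8 genes of the further lists past the threshold, with groups in the order PND2N, PND2R, PND0. SLC16A3 reaches at most 545 at day 2 and at least 811 in PND0, and TIGAR is at least 292 at day 2 and at most 241 in PND0.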

How the data were processed

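Uterine RNA of 12 gilts was sequenced. The deposited values are a normalized signal per gene made by the authors, on a linear scale with decimals and a lowest value of 1, per the file's values. The submitters' processing notes name bcl2fastq and the genome build Sscrofa10.2, which the coordinates here use. How reads were aligned, counted by strand and normalized is not given in the sources used here, so reads of overlapping genes may not have been told apart. Many low values were not whole multiples of a common step, so no count test was used.

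Each comparison used limma 3.58.1 with statmod 1.5.0 in R 4.3.3 on log2(value + 1) of all 12 libraries, with a trended and robust prior. Entries above 1 in at least 4 libraries entered (16862 of 20390), and p-values were adjusted by Benjamini-Hochberg over them. The day 2 average is the mean of PND2N and PND2R. The fit was tested on simulated data with independent values per entry and changes only in PND2N, in entries away from the floor. Those data lack differences shared by whole libraries, so they do not test the calls against such differences. Tables were made with pandas 2.3.3 and numpy 2.4.6 under Python 3.11.15, and figures with matplotlib 3.10.9.

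LOC placeholders were named from the NCBI gene table of a later pig assembly. An entry under the symbol GSK3B whose gene ID that table gives to another gene was left out. Values in every library are given for members past the threshold and for up to 2 members of each role with the smallest F test p. Genes of the further lists are named where past the threshold. PDK4, SLC2A1 and SLC2A3 did not pass and were named outside that rule. The members and lists were chosen with earlier results of these data known. Library numbers follow accession order and pair nothing. No value columns were left unmatched, and no pair of libraries was identical (lowest pairwise Pearson r 0.935 on the log2 scale). Alternatives were 0.1 or 5 added before the logarithm, no filter or a filter above 10, TMM scaling, only the groups compared, library quality weights and each library left out.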

Additional observations from a re-analysis of the deposited data

Results flagged for a closer look

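Of 81 groups of 4 libraries checked among the entries whose values are given in full, 5 held 1 library far from the other 3, and chance alone flags about 1 group in 20. In each, the gap of that library to its nearest neighbour took up most of the range of its group, beyond the critical value of Dixon's test. PDHA1 was 8189 in PND2R 2 and 7398 to 7492 in the other PND2R libraries. PDK3 was 1487 in PND2N 1, against 986 to 1054 in the other PND2N libraries. PHKB was 1292 in PND0 3 and 1006 to 1037 in the other PND0 libraries. PPP1R3G was 1.18 in PND2N 3, where the other PND2N libraries stood at 1, the lowest value of the table. Any value above that floor would have been flagged there, so this group does not bear on the chance rate. The second entry of GSK3B was 604 in PND0 2, below 735 to 761 in the other PND0 libraries.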

How the results depend on the processing

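The number of members past the threshold in PND2N was 1, and 2 with no filter on low values, 3 with library quality weights, 2 without PND2N 1, PND2R 2 and PND2R 3, and 3 without PND0 1 and PND0 2, where leaving out 1 library gave 1 each time. In PND2R it was 5, and 0 without PND2N 1, PND2R 2 and PND2R 3 (7 under an unadjusted p of 0.05, lowest adjusted p = 0.0648 in limma), with a range of 1 to 7 when 1 library was left out. In the day 2 average it was 5, and 2 without PND2N 1, PND2R 2 and PND2R 3, with a range of 2 to 6 when 1 library was left out. Between the feeds it was 0 in limma under each alternative, with up to 7 members under an unadjusted p of 0.05 (library quality weights, lowest adjusted p = 0.269). The cause of these shifts was not tested, and they are not shown to be particular to the members. A fit of only the groups compared was not run for the day 2 average, which uses all 3 groups. With only PND2N and PND0 in the fit, 7 of all entries passed, against 560 with all libraries. Among the calls of single genes, 534 recomputed values stayed past the threshold and 203 did not, and none changed sign. The joint removal of PND2N 1, PND2R 2 and PND2R 3, which ended 25 of 36 calls, and of PND0 1 and PND0 2, which ended 12, was chosen after the data were seen. No paired analysis was possible because the labels give no replicate number shared between groups. The precision is limited by 4 animals a group, and for PPP1R3G and PPP1R3A by the lowest value of the table.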

Other observations

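Within the newborn group, PND0 1 and PND0 2 stood above PND0 3 and PND0 4 for PFKP, PFKL, PGM2 and PPP1R3D. The same order held for other members, among them HK1, HK2, LDHA, PCK2 and PGD, and the reverse for PDK1 and PHKB. The share of all entries with this split was not counted, so it is not shown to be particular to these genes. Summed epithelial markers had the same order (88496 and 93641, against 26086 and 19974). PFKP had 859.5, 791, 304 and 378 in the 4 PND0 libraries. PFKL had 7137, 8874, 3762 and 3338, PGM2 3321, 2881, 1613 and 1537 and PPP1R3D 1816, 1725, 903 and 947. The choice of these genes followed from their values, and the part of the epithelial markers was not tested. The labels do not separate the libraries.

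PDK4, the pyruvate dehydrogenase kinase known to rise in fasting, had 853, 2670.4, 1592 and 1968 in PND2N, 1319, 414, 536 and 1194 in PND2R and 1586, 562, 1163 and 1477 in PND0. Between the feeds its log2 difference was 1.09 ± 0.47, with an unadjusted p of 0.0377 and an adjusted p of 0.9996 in limma, so it did not pass. It was named after its values were seen, and it was the only gene of the further pathway list under an unadjusted p of 0.05 in that comparison. PND2R 2 and PND2R 3 held its lowest day 2 values.

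The remaining marker lists were also summed by library. Endothelial markers (5 of 6 found) summed to 6232 to 11201 in PND2N, 5226 to 6077 in PND2R and 7205 to 12329 in PND0, with every PND2R library below the other groups. Markers of macrophages and leukocytes (4 of 6) summed to 4288 to 5469 in PND2N, 3706 to 5291 in PND2R and 2304 to 4637 in PND0, and 2 of them passed in the day 2 average. Erythroid markers (4 of 6) summed to 2164 to 4013 in PND2N, 689 to 2934 in PND2R and 1062 to 2656 in PND0. Adipocyte markers (4 of 5, with ADIPOQ at 1 in every library) summed to 22.1 to 47.6 in PND2N, 16.1 to 33.4 in PND2R and 45.5 to 59.1 in PND0, with 1 of them past the threshold in the day 2 average.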
